A study of Oryza sativa Japonica Group and Oryza sativa with 4 samples.

Results

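Respiratory burst oxidases are enzymes of the plant plasma membrane that pass electrons from NADPH to oxygen outside the cell. The superoxide they make is turned into hydrogen peroxide, which acts as a defense signal and strengthens the cell wall. Calcium binds to the part of the enzyme inside the cell, and calcium-dependent protein kinases and small Rac/Rop GTPases are known to switch the enzymes on after receptors detect a pathogen or pest. The 9 rice respiratory burst oxidase genes described here were taken as a list of gene identifiers from the RAP-DB annotation and were 9 of the 37849 genes of the deposited gene table.

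The leaves came from rice seedlings aged 21 days of 2 lines. One was the near-isogenic line (NIL), which carries the green rice leafhopper (GRH) resistance gene Grh1 from Shingwang (indica), and the other was Ilpum (japonica), its wild-type recurrent parent that is susceptible to GRH. Seedlings of each line were either kept with GRH nymphs, sap-sucking insects, for 48 h or left without insects (control). The files held 1 set of values per condition, treated here as 1 library and named NIL GRH, NIL control, Ilpum GRH and Ilpum control. The methods describe leaves of duplicate seedlings, but whether they were pooled is not stated in the sources used here, and the NIL is a single line. No test between conditions was therefore possible, and a difference between libraries may reflect single seedlings, single library preparations or the condition, which cannot be told apart.

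The gene table held 1170099 reads in NIL GRH, 5037081 in NIL control, 894661 in Ilpum GRH and 2119765 in Ilpum control, so the GRH library was the shallower one in both lines. The leaf label was checked against 17 genes described as chlorophyll a-b binding proteins or small subunits of ribulose bisphosphate carboxylase. Of these, 8, 12, 10 and 10 had reads in NIL GRH, NIL control, Ilpum GRH and Ilpum control. Their summed level was 6221 FPKM in NIL GRH against 19001 FPKM in NIL control, and 14399 FPKM in Ilpum GRH against 25203 FPKM in Ilpum control. FPKM is fragments per kilobase of transcript and per 1000000 mapped fragments. The leaf genes thus stood lower in the GRH library of each line, and their part in the results below was not tested. Fewer cells of a type and less RNA per cell cannot be told apart in whole leaves. No gene matched the root list (Casparian strip), and 8, 7, 4 and 3 of 25 genes described as pollen-specific or pollen allergens had reads in the 4 libraries in that order. The summed level of these genes was 1847 FPKM in NIL GRH against 1042 FPKM in NIL control, and 3235 FPKM in Ilpum GRH against 1874 FPKM in Ilpum control. It was thus higher in the GRH library of each line, which was not tested further.

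Reads were found for 8 of the 9 oxidase genes in at least 1 library, and 7 of them reached a mean of 1 FPKM over the 4 libraries, the minimum used for counts of genes. The summed level of the family was 91.6 FPKM in NIL GRH against 130.2 FPKM in NIL control, and 149.1 FPKM in Ilpum GRH against 104.4 FPKM in Ilpum control. In reads per 1000000 reads of the library, the family took 264.9 (95% exact Poisson interval 236.3 to 296.1) in NIL GRH and 386.3 (369.4 to 403.9) in NIL control. The corresponding sums were 415.8 (374.6 to 460.3) in Ilpum GRH and 329.3 (305.3 to 354.6) in Ilpum control. The family was therefore lower with GRH than without it in NIL and higher with GRH than without it in Ilpum, with intervals that did not overlap in either line. The counts were made from coverage and the length of 1 read in paired-end libraries, so both mates of a fragment enter them. With reads halved to allow for this, the intervals stayed apart in NIL (224.9 to 310.1 with GRH, 362.4 to 411.4 without). In Ilpum they overlapped (358.2 to 480 with GRH, 295.6 to 365.7 without). These intervals, and all others given here, cover counting error within the libraries only, and reads that are PCR copies or mates of one fragment are not independent.

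Os01g0360200 (chromosome 1, 14621368 to 14627934, minus strand of IRGSP-1.0; 13 exons), described as similar to a respiratory burst oxidase homolog, was the highest member in every library. Its level was 51.6 FPKM in NIL GRH, 82.6 FPKM in NIL control, 55.8 FPKM in Ilpum GRH and 65.9 FPKM in Ilpum control, from 201, 1367, 163 and 466 reads. It alone supplied 64.8% of the family's reads in NIL GRH, 70.2% in NIL control, 43.8% in Ilpum GRH and 66.8% in Ilpum control. In each library its counting interval, of reads not halved, lay above that of the next member. The gap was narrowest in Ilpum GRH, where it began at 47.6 FPKM and that of Os01g0835500 ended at 47.2 FPKM. Intervals of reads not halved are too narrow, so the order of these genes in Ilpum GRH was not resolved. The first place in Ilpum GRH also rests on summing both transcript models. Os01t0360200-01 alone had 15.5 FPKM there, below the 37.9 FPKM of Os01t0835500-03.

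Os01g0835500 (chromosome 1, 35813149 to 35817706, plus strand; 13 exons), described as similar to respiratory burst oxidase protein A, reached 11.02 FPKM in NIL GRH, 10.4 FPKM in NIL control, 37.9 FPKM in Ilpum GRH and 15.7 FPKM in Ilpum control. Ilpum GRH stood apart from the other 3 libraries for this gene. Os08g0453700 (chromosome 8, 22210390 to 22219247, plus strand; 14 exons) is described as similar to RBOH F of Arabidopsis, which in that species takes part in abscisic acid and defense signaling. It had 2.44 FPKM in NIL GRH, 10.9 FPKM in NIL control, 10.1 FPKM in Ilpum GRH and 12.1 FPKM in Ilpum control. Here NIL GRH was the low library.

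Os09g0438000 (chromosome 9, 16186282 to 16197135, plus strand; 15 exons) had 6.52 FPKM in NIL GRH, 6.50 FPKM in NIL control, 11.7 FPKM in Ilpum GRH and 2.67 FPKM in Ilpum control. Os05g0528000 (chromosome 5, 26237497 to 26245891, minus strand; 16 exons) had 4.22 FPKM in NIL GRH, 3.33 FPKM in NIL control, 9.64 FPKM in Ilpum GRH and 2.80 FPKM in Ilpum control. Both genes are described as similar to the rice sequence RbohAOsp, and both were highest in Ilpum GRH and lowest in Ilpum control. Their read numbers were small, with 28, 117, 40 and 19 reads for Os09g0438000 and 18, 61, 33 and 22 reads for Os05g0528000 in the library order above.

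Os11g0537400 (chromosome 11, 19592605 to 19593300, minus strand) is a short model of 696 bases in 1 exon, described as similar to respiratory burst oxidase-like protein D. Its 14, 39, 7 and 8 reads gave 15.8 FPKM in NIL GRH, 10.6 FPKM in NIL control, 10.4 FPKM in Ilpum GRH and 5.20 FPKM in Ilpum control. Os01g0734200 (chromosome 1, 30622077 to 30623763, plus strand; 4 exons and 954 bases), described as similar to respiratory burst oxidase protein B, had 0 reads in NIL GRH, 27 reads (5.35 FPKM) in NIL control, 11 reads (11.2 FPKM) in Ilpum GRH and 0 reads in Ilpum control. A count of 0 allows up to 3 reads, which would be 2.58 FPKM for this gene in NIL GRH and 1.42 FPKM in Ilpum control.

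The remaining pair of genes did not reach the minimum level. Os12g0541300 (chromosome 12, 21648123 to 21653555, plus strand; 13 exons) is annotated with a role in ethylene-induced aerenchyma formation, the making of air spaces, in roots short of oxygen. It had 0 reads in NIL GRH, 10 reads (0.562 FPKM) in NIL control, 8 reads (2.29 FPKM) in Ilpum GRH and 0 reads in Ilpum control. Os05g0465800 (chromosome 5, 22860163 to 22865056, plus strand; 15 exons), described as similar to RbohAp108, had 0 reads in all 4 libraries, which allows up to 0.832 FPKM in NIL GRH, 0.194 FPKM in NIL control, 1.06 FPKM in Ilpum GRH and 0.460 FPKM in Ilpum control. Each of the 9 genes overlaps at least 1 annotated gene on the opposite strand, and the counting used strand.

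**Figure D1:**
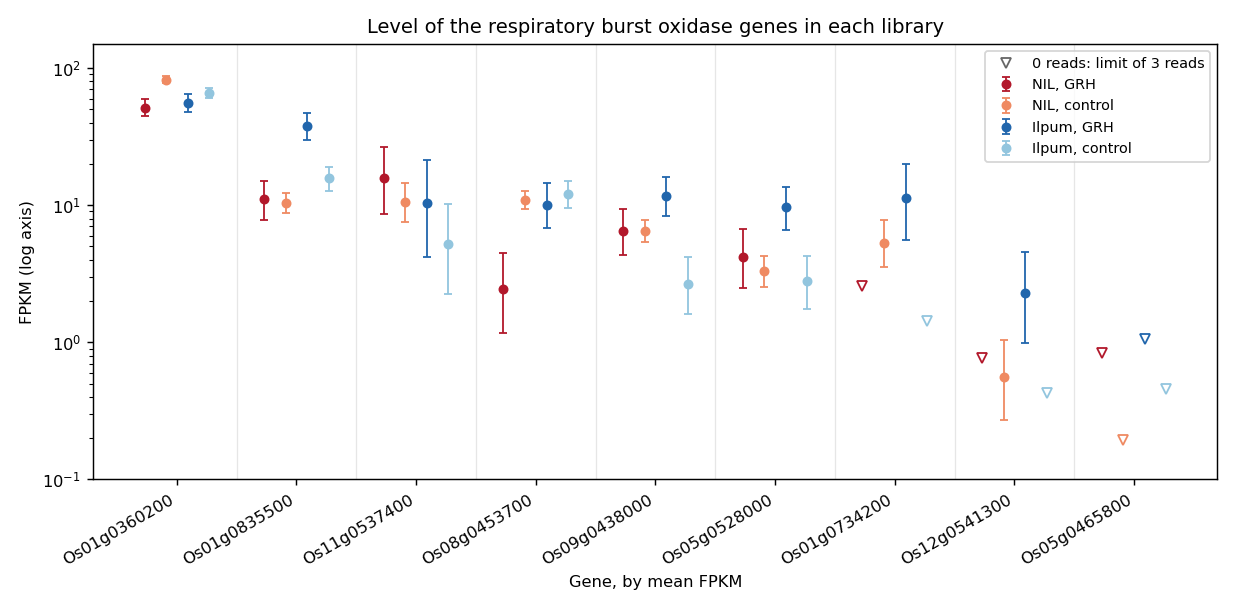
Level of each of the 9 respiratory burst oxidase genes in the 4 libraries, in FPKM on a log axis. Points are single libraries, bars are 95% exact Poisson intervals of the read count and open triangles are the limit of 3 reads for libraries with 0 reads. Os01g0360200 lies between 51.6 and 82.6 FPKM in all libraries, and the blue points of Ilpum GRH lie above those of Ilpum control for 6 of the other genes.

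Below Os01g0360200 the order of the members depended on the library. In NIL GRH the next 5 genes ran from 15.8 FPKM (Os11g0537400) to 2.44 FPKM (Os08g0453700), and each gene's interval overlapped that of its neighbor in the order. In NIL control Os08g0453700, Os11g0537400 and Os01g0835500 (10.9, 10.6 and 10.4 FPKM) had overlapping intervals, and that of Os09g0438000 (6.50 FPKM) lay below those of Os08g0453700 and Os01g0835500 but overlapped that of Os11g0537400. In Ilpum GRH Os01g0835500 was second at 37.9 FPKM, followed without overlap by 5 genes between 11.7 and 9.64 FPKM whose intervals overlapped. In Ilpum control Os01g0835500 and Os08g0453700 (15.7 and 12.1 FPKM) overlapped, and Os05g0528000 and Os09g0438000 (2.80 and 2.67 FPKM) did as well.

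The first comparison asks what GRH feeding did in the resistant line. Changes are given as log2((FPKM + 1)/(FPKM + 1)), a scale that understates the change of low genes, and a gene was counted as higher or lower when it differed at least 2-fold on it. In NIL, 0 of the 7 members that reached the minimum level were at least 2-fold higher with GRH than without, and 2 of 7 were at least 2-fold lower. Over all 18575 genes at that level, 14.7% were higher and 20.9% lower by this rule. The median change was 0.00 for the members against -0.06 for all genes.

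Os08g0453700 was the member with the clearest difference in NIL. It had 10 reads in NIL GRH against 175 reads in NIL control, a log2 change of -1.79 in FPKM + 1. As a ratio of reads per library total the log2 value was -2.02, with an exact 95% counting interval of -3.11 to -1.11. The 10 reads of NIL GRH lay in 3 exons, whereas 10 of 14 exons were covered in NIL control. For Os01g0734200, 0 reads in NIL GRH against 27 in NIL control gave an upper bound of -0.67 for the log2 read ratio. With reads halved this bound was 0.44, so no direction was shown there. Os01g0360200 was below the 2-fold mark but precise, with a log2 change of -0.67 and a log2 read ratio of -0.66 (-0.88 to -0.45).

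The other NIL intervals included 0. The log2 read ratio was 0.16 (-0.38 to 0.68) for Os01g0835500, 0.04 (-0.61 to 0.65) for Os09g0438000, 0.35 (-0.50 to 1.12) for Os05g0528000 and 0.63 (-0.37 to 1.54) for Os11g0537400. A 2-fold difference in either direction lies outside the interval for Os01g0835500 and Os09g0438000, while for Os05g0528000 and Os11g0537400 the intervals reach past 2-fold higher. The sign for Os05g0528000 depended on 1 exon, as given with the exon coverage. Os12g0541300 had 0 reads in NIL GRH, and its 10 reads in NIL control correspond to fewer than 3 at the depth of NIL GRH. The upper bound of its log2 read ratio was 0.94.

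The second comparison asks the same of the susceptible line, and here more members were higher. In Ilpum, 4 of 7 members were at least 2-fold higher with GRH and 0 of 7 at least 2-fold lower, where 20.4% of all genes were higher and 28.6% lower. The median change was 1.22 for the members against -0.10 for all genes. The 4 were Os01g0835500, Os05g0528000, Os09g0438000 and Os01g0734200.

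Os01g0835500 had 37.9 FPKM from 80 reads in Ilpum GRH against 15.7 FPKM from 101 reads in Ilpum control, a log2 change of 1.22. Its log2 read ratio was smaller, 0.91 (0.47 to 1.35), because FPKM also divides by the length of the transcript to which the reads were given. Os05g0528000 gave a log2 change of 1.49 and a read ratio of 1.83 (1.01 to 2.68). Os09g0438000 gave 1.79 and 2.32 (1.5 to 3.19). Os01g0734200, with 11 reads in Ilpum GRH against 0 in Ilpum control, had a lower bound of 2.57 for the log2 read ratio. For Os12g0541300, with 8 reads against 0, the lower bound was 2.02.

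The most abundant member did not follow these genes. Os01g0360200 had a log2 change of -0.24 in Ilpum and a read ratio of -0.27 (-0.54 to -0.01). Os08g0453700 also had a log2 change of -0.24, with a read ratio of -0.21 (-0.86 to 0.41). For Os11g0537400, 7 reads against 8 gave a log2 change of 0.88 with a read interval of -0.64 to 2.71, so neither direction was shown at this depth.

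**Figure D2:**
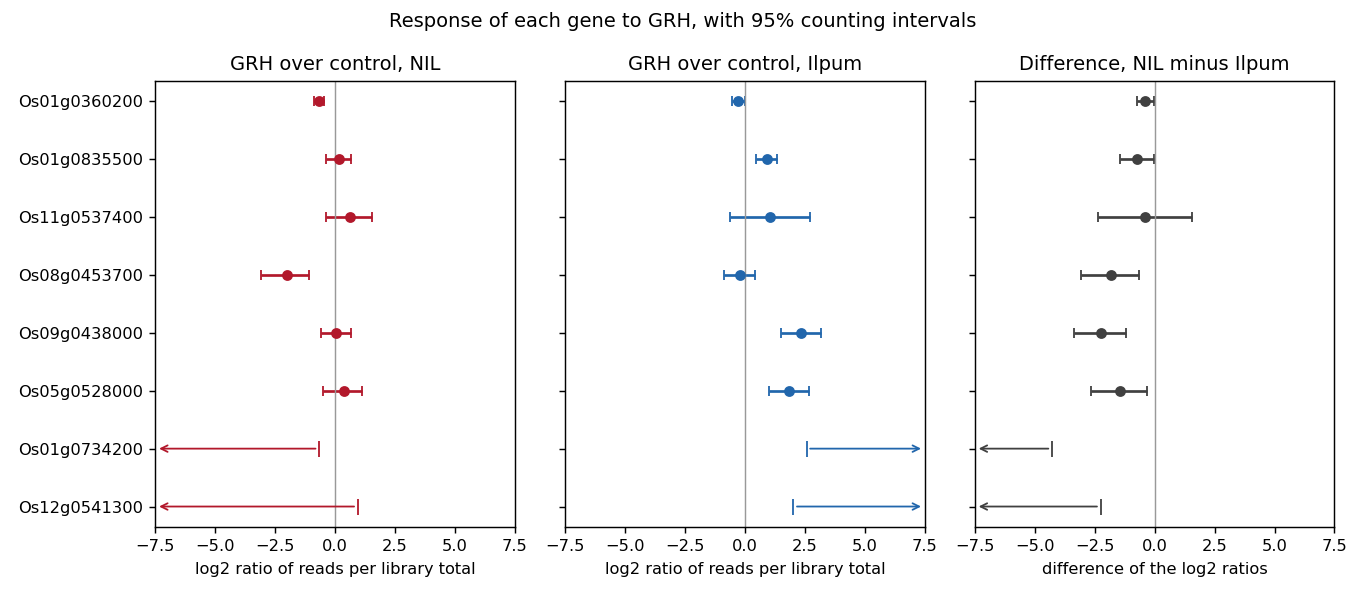
Log2 ratio of reads per library total, GRH over control, in NIL (left) and Ilpum (middle), and the difference of these ratios, NIL minus Ilpum (right), for the 8 oxidase genes with reads. Bars are exact 95% counting intervals, and arrows run from the bound of an interval that is open on one side because a library had 0 reads. Os09g0438000 sits at 0.04 in NIL and 2.32 in Ilpum, where all its Ilpum GRH reads lay in exon 6. In the right panel, for reads not halved, only the interval of Os11g0537400 reaches above 0.

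Set against each other with all exons counted, the responses of the members were lower in NIL than in Ilpum. The difference of the log2 changes, NIL minus Ilpum, was below 0 for 7 of 7 members at the minimum level and at or below -1 for 5 of 7. Over all genes 47.5% were below 0, 23.7% were at least 2-fold lower in NIL by this difference and 26.4% at least 2-fold higher. The members' median was -1.22 against 0.09 for all genes. The same 4 libraries enter every member's difference, so the 7 values share whatever set those libraries apart.

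In reads, the difference for Os09g0438000 was -2.26 (exact interval of the conditional odds ratio -3.35 to -1.21), for Os08g0453700 -1.81 (-3.07 to -0.65) and for Os05g0528000 -1.46 (-2.67 to -0.31). With all exons counted, these 3 genes reached their difference by different routes, Os08g0453700 by a lower value in NIL and the others by a higher value in Ilpum. These routes changed without the fullest exon. For Os09g0438000 the direction of the difference itself turned, with -0.26 (-1.03 to 0.44) in NIL and an upper bound of -0.87 in Ilpum. Its difference of -2.26 thus rests on that exon. Os05g0528000 was 0.42 (-0.72 to 1.5) in Ilpum and lower in NIL. Os08g0453700 stayed lower in NIL but was also higher in Ilpum (0.93, 0.18 to 1.67). Os01g0835500 had -0.74 (-1.45 to -0.05) and Os01g0360200 had -0.39 (-0.73 to -0.04), both with an upper bound close to 0. Os11g0537400 had -0.40 with an interval of -2.35 to 1.55. With reads halved and all exons counted, the interval stayed below 0 for 3 of the 7 members, namely Os01g0734200, Os08g0453700 and Os09g0438000.

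The lines were also compared under each condition, and these comparisons use the same 4 libraries again. With GRH, 0 of 7 members were at least 2-fold higher in NIL than in Ilpum and 4 of 7 at least 2-fold lower, against 25% and 23.7% of all genes. The 4 were Os01g0734200 (0 against 11 reads, upper bound of -1.71 for the log2 read ratio), Os01g0835500 (log2 change -1.69), Os08g0453700 (-1.69) and Os05g0528000 (-1.03). Over Os01g0734200 and its neighboring models, described below, the log2 read ratio was -0.19 (-0.98 to 0.61), so no direction was shown there. The median was -1.03 for the members and 0.00 for all genes. Os01g0360200 was nearly level between the infested lines, with a read ratio of -0.08 (-0.39 to 0.22).

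Without GRH, 2 of 7 members were at least 2-fold higher in NIL than in Ilpum and 0 of 7 at least 2-fold lower, against 14.1% and 14% of all genes. They were Os09g0438000 and Os01g0734200. Os09g0438000 had 117 reads in NIL control against 19 in Ilpum control and a read ratio of 1.37 (0.67 to 2.16). Os01g0734200 had 27 reads against 0, with a lower bound of 1.52 for the log2 read ratio. Os01g0360200 was slightly higher in NIL control (0.30, 0.15 to 0.46), and Os01g0835500 was lower there (-0.68, -1.05 to -0.30). For Os09g0438000 and Os01g0734200 the low value of Ilpum control thus enters both the higher ratio with GRH in Ilpum and the higher ratio of NIL without GRH. Os05g0528000 and Os05g0465800 lie on chromosome 5, the chromosome of Grh1, and whether either lies in the introgressed segment was not examined.

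The coverage along the genes showed how few positions some of these values rest on. In Ilpum GRH all reads of Os09g0438000 lay in exon 6, which makes up 10.98% of the exon length, while in Ilpum control the reads lay in 6 other exons and exon 6 had 0. Without exon 6 no read of this gene remained in Ilpum GRH, against 17.7 reads in Ilpum control, so the direction turned round. In the NIL libraries the same gene had reads in 11 of 15 exons with GRH and in 15 of 15 without, and its ratio without exon 6 was -0.26 (-1.03 to 0.44). Between the infested lines, leaving out exon 6 left 19.96 reads in NIL GRH against 0 in Ilpum GRH, which turned the direction to higher in NIL, with a lower bound of 1.91 for the log2 read ratio.

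Os05g0528000 was similar, with 3 of 16 exons covered in Ilpum GRH against 9 in Ilpum control and 1 exon covered in both. Exon 1 held 62.1% of its reads in Ilpum GRH and 0 reads in Ilpum control, and without it the log2 read ratio was 0.42 (-0.72 to 1.5) in Ilpum. In NIL GRH, 82.2% of its reads lay in exon 5, and without that exon the ratio in NIL was -1.74 (-3.98 to -0.15), against 0.35 with all exons. The infested lines then differed by 0.17 (-0.96 to 1.35) without exon 1, against -1.26 (-2.18 to -0.39) with all exons.

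Os08g0453700 had 0 reads in exon 1 in Ilpum GRH, against 45.0 reads in Ilpum control. Without exon 1 its ratio in Ilpum was 0.93 (0.18 to 1.67), while in NIL it stayed low at -2.88 (-4.75 to -1.5). For Os01g0835500, exon 4 held 62.3% of the reads in Ilpum GRH and 45.5% in Ilpum control, and without it the ratio in Ilpum was 0.38 (-0.32 to 1.04). The 11 reads of Os01g0734200 and the 8 reads of Os12g0541300 in Ilpum GRH each lay in 1 exon. By contrast, Os01g0360200 had reads in 13 of 13 exons in 3 libraries and in 12 in Ilpum GRH, and without its fullest exon the ratio was -0.73 (-0.99 to -0.49) in NIL and 0.02 (-0.28 to 0.30) in Ilpum.

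Uneven coverage was general at this depth and strongest in Ilpum GRH. Among genes with 1 transcript, at least 8 exons and 20 to 50 reads, a median of 26.7% of exons had no coverage in NIL GRH, 23.1% in NIL control, 44.4% in Ilpum GRH and 33.3% in Ilpum control. The fullest exon held a median of 41.0% of a gene's reads in Ilpum GRH, and 83.6% at the 95th percentile, below the 100% of Os09g0438000. The part of this unevenness in the ratios of the other members was not tested beyond leaving out the fullest exon.

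**Figure D3:**
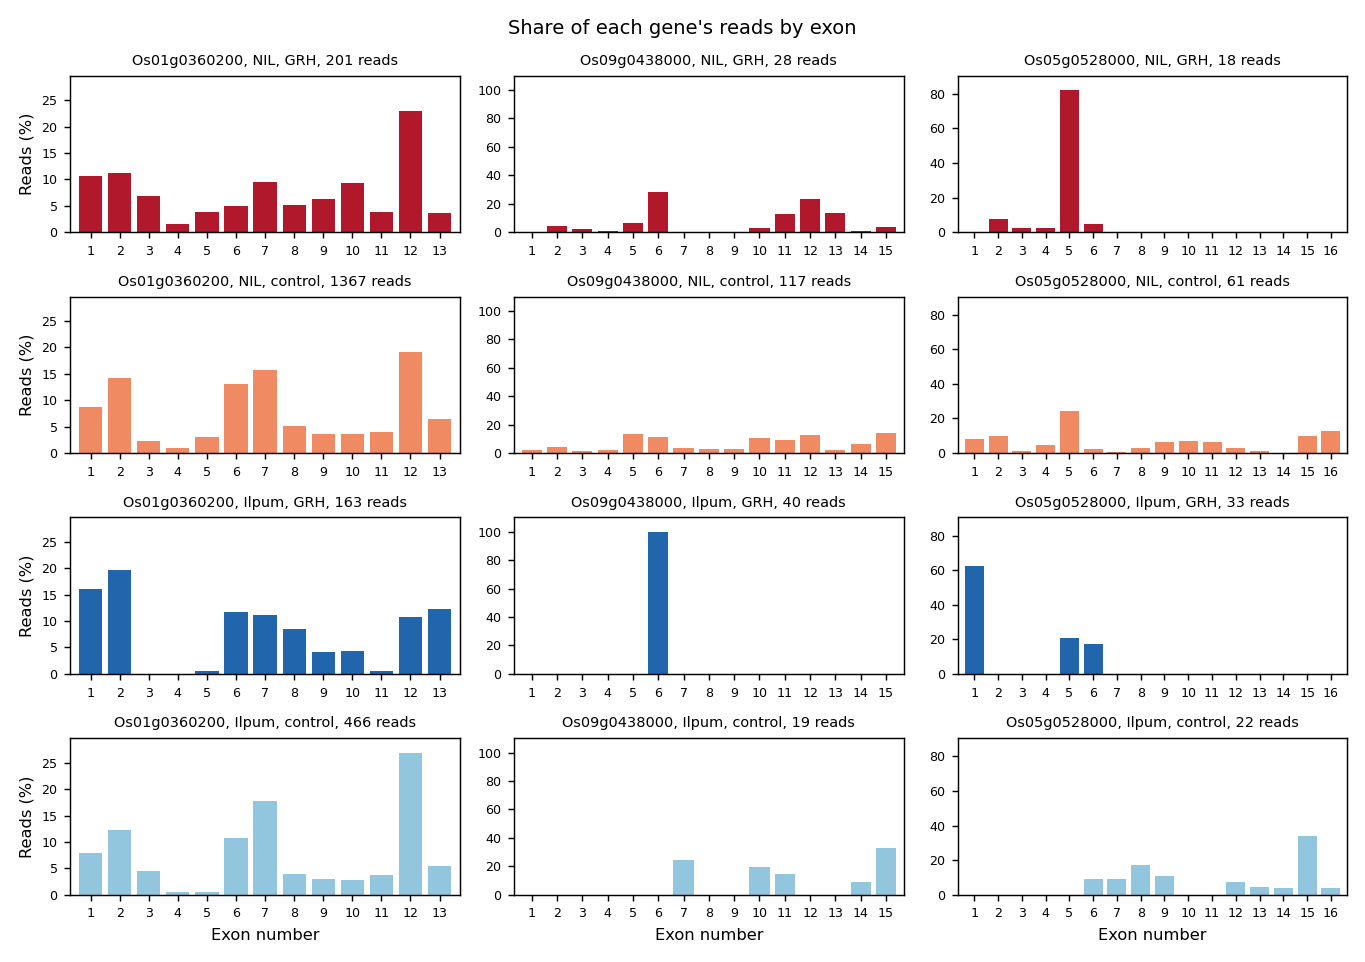
Share of a gene's reads (%) in each exon, numbered from the 5′ end, for Os01g0360200, Os09g0438000 and Os05g0528000 (columns) in the 4 libraries (rows). Os01g0360200 is covered nearly throughout in every library, whereas Os09g0438000 has all its reads in exon 6 in Ilpum GRH and none there in Ilpum control.

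Transcript estimates also differed between libraries for the 2 most abundant members. Os01g0360200 has models of 3195 bases (Os01t0360200-01) and 2978 bases (Os01t0360200-03). The second took 5.47% of the gene's reads in NIL GRH and 13.8% in NIL control, against 70.6% in Ilpum GRH and 1.93% in Ilpum control. Exon 1, which belongs to Os01t0360200-01 alone, nevertheless held 16.1% of the gene's reads in Ilpum GRH and 7.86% in Ilpum control. Exon 1 was thus no emptier where its transcript was estimated lowest.

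Os01g0835500 has 3 models of 2194 to 2899 bases that share most exons. All 39 reads in NIL GRH and all 101 in Ilpum control were given to the longest, Os01t0835500-01, while all 80 in Ilpum GRH were given to the shortest, Os01t0835500-03. In NIL control, 108, 22 and 20 reads were given to Os01t0835500-01, -02 and -03. Given the gap between the FPKM and the read ratio of this gene in Ilpum, the read ratio of 0.91 is the value that does not depend on this assignment.

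**Figure D4:**
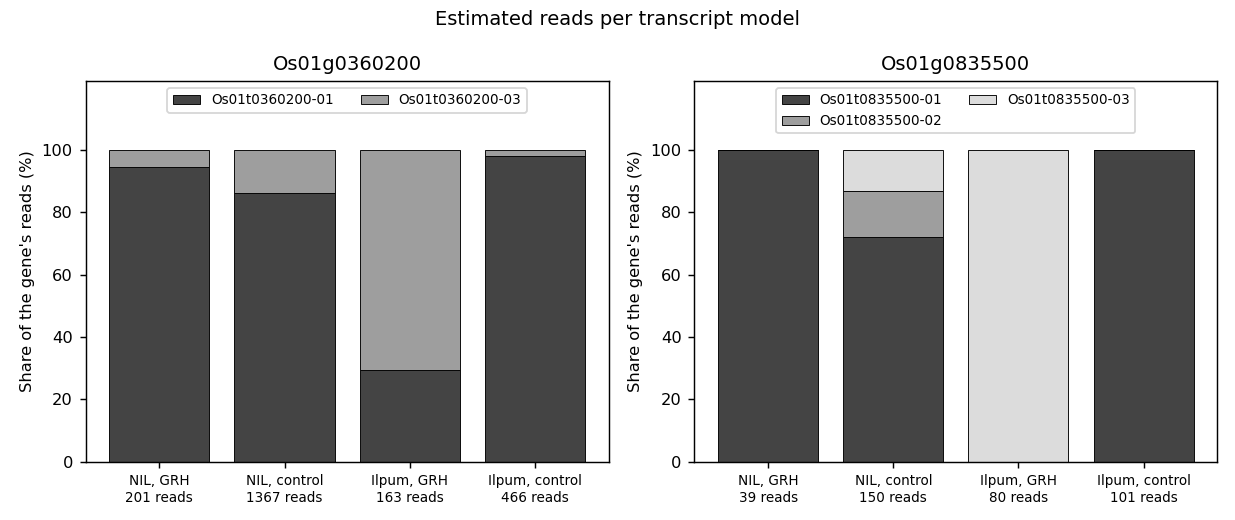
Share of the estimated reads (%) given to each transcript model of Os01g0360200 (left) and Os01g0835500 (right) in the 4 libraries, with the number of reads of the gene under each bar. Ilpum GRH differs from the other libraries in both genes, with 70.6% on Os01t0360200-03 and all reads on Os01t0835500-03.

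Os01g0734200 is followed on the same strand by Os01g0734333 (333 bases, similar to RbohAOsp) and Os01g0734466 (2069 bases, similar to an NAD(P)H oxidase fragment), neither of which is in the list of 9. Os01g0734466 had 31 reads (12.3 FPKM) in NIL GRH, 86 (7.87 FPKM) in NIL control, 16 (8.06 FPKM) in Ilpum GRH and 7 (1.51 FPKM) in Ilpum control. Over the 3 models together the log2 read ratio was 0.21 (-0.41 to 0.80) in NIL and 3.19 (1.96 to 4.64) in Ilpum. The lower value of Os01g0734200 in NIL GRH than in NIL control was therefore not seen over the 3 models. The higher value in Ilpum GRH than in Ilpum control was. Between the infested lines the 3 models had 31 reads in NIL GRH against 27 in Ilpum GRH, a ratio of -0.19 (-0.98 to 0.61). Whether the 3 models are parts of one gene was not examined.

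Lists of genes related to the oxidases or to their signaling were drawn from words in the gene descriptions and are given by their counts. The background for every list below is the share of all genes at the minimum level. With GRH, 14.7% of all genes were at least 2-fold higher and 20.9% lower in NIL, and 20.4% and 28.6% in Ilpum. The median change of all genes was -0.06 in NIL and -0.10 in Ilpum. LysM proteins include receptors that sense chitin, and among the 7 of 11 at the minimum level, 5 were at least 2-fold higher and 0 lower with GRH in Ilpum, against 1 higher and 2 lower in NIL. Their median change was 0.00 in NIL and 1.16 in Ilpum. Os08g0538300, a LysM receptor-like kinase of chitin signaling, had 45.0 FPKM in NIL GRH against 40.7 FPKM in NIL control, and 90.2 FPKM in Ilpum GRH against 44.4 FPKM in Ilpum control. Its read ratio was 0.22 (-0.09 to 0.51) in NIL and 1.01 (0.71 to 1.31) in Ilpum, from 116 reads or more per library. Os06g0729900 was similar, with a read ratio of 0.07 (-0.44 to 0.56) in NIL and 1.51 (0.87 to 2.15) in Ilpum. Os10g0524300 was instead at least 2-fold higher in both lines, with log2 changes of 1.04 in NIL and 1.16 in Ilpum. Its read ratios were 1.11 (0.5 to 1.69) in NIL and 1.24 (0.65 to 1.84) in Ilpum, so the higher values were not confined to Ilpum.

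Of the calcium-dependent protein kinases, 22 of 30 reached the minimum level. In NIL 5 were at least 2-fold higher and 5 lower with GRH, and in Ilpum 2 were higher and 1 lower, with medians of 0.18 and 0.61. Os02g0126400, annotated as a positive regulator of salt and drought responses, had 73.1 FPKM in NIL GRH against 15.5 FPKM in NIL control and 193.1 FPKM in Ilpum GRH against 42.7 FPKM in Ilpum control. That is a log2 change of 2.17 in NIL and 2.15 in Ilpum, unlike any of the 9 oxidase genes, none of which was at least 2-fold higher in both lines. Calcineurin B-like proteins and their kinases had 0 higher and 1 lower of 23 in NIL, and 2 higher and 3 lower in Ilpum.

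Of 9 Rac and Rop signaling genes, 2 were at least 2-fold higher and 2 lower with GRH in NIL, and likewise 2 and 2 in Ilpum. The exchange factor Os03g0666200, annotated with regulation of immune responses, was close to level at 39.0 FPKM in NIL GRH against 34.0 FPKM in NIL control and 34.1 FPKM in Ilpum GRH against 35.4 FPKM in Ilpum control. Os04g0577200, similar to a Rac GTPase activating protein, had 4.03 FPKM in NIL GRH against 7.98 FPKM in NIL control, and 28.3 FPKM in Ilpum GRH against 8.0 FPKM in Ilpum control. The 2 Rop exchange factors at the minimum level, which are also in the Rac and Rop list, differed less than 2-fold in both lines.

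Among enzymes that remove superoxide or hydrogen peroxide, 1 of 9 superoxide dismutases was at least 2-fold higher and 1 lower with GRH in each line. Of 9 ascorbate peroxidases, 0 were higher and 3 lower in NIL, and 2 higher and 2 lower in Ilpum. Of 3 catalases, 0 were past 2-fold in NIL and 1 was lower in Ilpum, namely Os03g0131200 with 517.6 FPKM in Ilpum GRH against 1184 FPKM in Ilpum control. Other sources of hydrogen peroxide were mixed, with 4 of 11 germin-like proteins higher and 1 lower in NIL against 5 and 2 in Ilpum, and 2 of 16 amine oxidases higher and 3 lower in NIL against 3 and 3 in Ilpum. Of the 3 genes whose descriptions hold the words ferric reductase, 1 was higher and 1 lower in NIL, and 2 were higher and 1 lower in Ilpum. The lower gene in both lines was Os04g0444800, a ferric reductase-like protein (log2 change -1.62 in NIL and -1.58 in Ilpum). The others are cytochrome b561/ferric reductase domain proteins with 15 reads or fewer in each GRH library.

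The genes closest to Os01g0360200 in pattern over the 4 libraries, by root mean square distance of centered log2(FPKM + 1) among 12650 genes averaging 5 FPKM or more, were Os05g0558800 (0.034), Os03g0344100 (0.036) and Os08g0504600 (0.04). They are described as a protein of unknown function, a splicing factor and an RNA recognition motif protein. For Os01g0734200, the member with the widest range (3.61), they were Os12g0269200 (0.134), Os02g0749450 (0.164) and Os11g0125500 (0.164), each with 0 reads in NIL GRH and Ilpum control. With 4 libraries, closeness of pattern is a description only.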

How the data were processed

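The authors made stranded, paired-end libraries, of which the files hold 1 set of values per condition, and aligned reads with HISAT. The deposited FPKM and TPM values came from StringTie 1.3.4d on RAP-DB transcripts of IRGSP-1.0, and coverage, as deposited, is read depth averaged over the bases of a gene or exon. The estimated count per transcript, as deposited, was made from coverage, transcript length and the length of 1 read (101 bases), rounded up. These whole numbers were used as they are. Transcript and exon reads are estimates. Both mates of a fragment enter the counts, so the intervals of reads that were not halved are too narrow, as they are where reads are copies.

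From these values, log2 changes with 1 FPKM added were computed for 4 comparisons over the genes averaging 1 FPKM or more. Exact 95% intervals on reads per library total (Poisson, conditional binomial, conditional odds ratio) came from scipy 1.17.1. The interval of the read ratio was run on simulated independent Poisson reads. Such reads hold no mates or copies, so this run cannot show how well the intervals cover the present counts. TMM factors came from edgeR 4.0.16, with no edgeR test. For levels, a count of 0 was set at its limit of 3 reads per library. Named genes are the 9 members, the 3 most abundant genes of each list (shown in part) and the 3 closest patterns. The members and the 11 lists were chosen with earlier results of these data known. Alternatives were pseudocount, TPM, quantile normalization, library-scaled reads, filter and threshold. Promoter and protein sequences were not analysed here.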

Additional observations from a re-analysis of the deposited data

Results flagged for a closer look

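For 2 of the 9 oxidase genes the log2 change with GRH had opposite signs in the lines. For Os01g0734200 the log2 change was -2.67 in NIL and 3.61 in Ilpum, a difference of -6.28. Over the 3 neighboring models the NIL value was 0.21, so the opposite sign rests on the Os01g0734200 model alone. For Os12g0541300 it was -0.64 in NIL and 1.72 in Ilpum, a difference of -2.36. Its 0 reads in NIL GRH against 10 in NIL control show no direction in NIL, with an upper bound of 0.94 for the log2 read ratio. In both genes NIL GRH and Ilpum control had 0 reads, so the sizes depend on the 1 FPKM that was added. With 1 library per condition the differences were not tested.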

How the results depend on the processing

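The log2 changes of single members were also taken under other scalings (0.1 FPKM added, TPM, quantile-normalized FPKM, library-scaled reads with or without TMM factors). Of these, 156 of 156 values stayed within the counting interval centered on the main log2 change, or past its bound where a library had 0 reads. The intervals are wide for most genes and the scalings use the same reads, so this was likely from the start. Among called values 0 changed sign, but calls near 2-fold moved. Os01g0835500 in Ilpum was 0.91 in library-scaled reads and 0.81 with TMM, where 3 rather than 4 members were higher. In library-scaled reads without TMM the count stayed at 4 only because Os11g0537400, at 1.06 from 7 against 8 reads, took its place. Os05g0528000 between the infested lines was -0.91 after quantile normalization, where 3 rather than 4 were lower. Between the controls 3 rather than 2 members were higher in NIL with 0.1 FPKM added, quantile normalization or TMM. A minimum mean of 5 FPKM left 1 member lower in NIL, 2 higher in Ilpum, 2 lower in NIL than in Ilpum with GRH and 1 higher in NIL than in Ilpum without GRH. A 4-fold threshold left 1 member in each of these. The number of members with a lower response in NIL was 5 by the 2-fold rule, 6 by an interval below 0 and 3 by an interval of halved reads, an alternative chosen after seeing the data.

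Further alternatives were also chosen after seeing the data. Without the fullest exon, with 0.5 reads added, the log2 read ratio turned to -3.94 for Os09g0438000 in Ilpum and to 0.15 for Os05g0528000 between the infested lines, by the loss of that exon's reads. It also took values that were not called to 4.97 for Os09g0438000 between the infested lines and to -1.55 for Os05g0528000 in NIL. With reads halved, the interval left out 0 for 2 rather than 3 members in NIL, 5 rather than 6 in Ilpum, 4 rather than 6 between the infested lines and 4 in both cases between the controls. Over the 3 neighboring models Os01g0734200 turned to 0.21 in NIL and moved to -0.19 between the infested lines. By the transcript with the highest mean FPKM, 5, 5, 7 and 4 of 9 members kept their place in the order in NIL GRH, NIL control, Ilpum GRH and Ilpum control, and in Ilpum GRH Os01g0835500 took first place. Over all genes, a minimum of 5 FPKM or a 4-fold threshold lowered each count over 1.5-fold, for example to 1757 and 881 genes higher in NIL and to 2339 and 1856 higher in Ilpum.

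No paired analysis was possible because each condition had 1 library. Depth limited all members but Os01g0360200, which had at least 163 reads in every library.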
